A study of Mus musculus with 15 samples.

Results

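Integrins are cell surface receptors made of 1 alpha and 1 beta subunit, and 10 of their genes, chosen by symbol as those of the fibroblast surface, were read in TTF cells labelled SIRT7 knockout or wild type. TTF is the usual abbreviation for tail-tip fibroblasts. The genes were the alpha subunits Itga1, Itga3, Itga5, Itga8, Itga11 and Itgav and the beta subunits Itgb1, Itgb3, Itgb5 and Itgb8, which are 10 of the 27 integrin genes listed and of the 55487 genes in the table. All 10 were found in the table of all reads and in the table of reads split between the parental genomes. The study measured polyA RNA in TTF cells of female C57BL6/CAST hybrid mice, whose chromosome copies differ in enough bases for part of the reads to be assigned to genome 1 or genome 2. Knockout (KO) libraries came from cells labelled SIRT7-KO and wild-type (WT) libraries from cells labelled S7WT_TTF, and both share the hybrid strain and the female sex, with no age, treatment or culture condition in the labels. The 3 KO libraries are called KO 2, KO 9 and KO 22 after the numbers of their columns, and the 3 WT libraries WT 1, WT 2 and WT 3. The other 9 of 15 libraries in the labels, SIRT7-HY cells and cells with SIRT7 added back among them, were not analysed here.

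An alpha subunit sets much of the ligand choice of an integrin, and the beta tail binds talin and kindlin, which switch the receptor on and link it to actin. The beta 1 subunit pairs with alpha 1 and alpha 11 to bind collagen, with alpha 3 to bind laminin, and with alpha 5 and alpha 8 to bind ligands such as fibronectin that carry the tripeptide RGD. The alpha v subunit pairs with several beta subunits, among them beta 3 and beta 5, which bind vitronectin, and beta 8, which releases latent TGF-beta. In fibroblasts these receptors hold the cell to its matrix and carry tension to the cytoskeleton.

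RefSeq start-site windows on GRCm38.p6, from 250 bases before to 50 bases after the annotated start, were available for 9 of the 10 genes. Those of Itgb1, Itgb5 and Itga11 are shown, because Itgb1 passed the test between genotypes, Itgb5 was higher in all KO libraries and changed in allelic share as Itgb1 did, and Itga11 had the largest fold change. They lie at chr8:128685404-128685703, chr16:33829415-33829714 and chr9:62677605-62677904, all on the plus strand. Capitals mark matches on either strand to GGGCGG, the GC box, and to GGAATG, a TEAD motif.
Itgb1: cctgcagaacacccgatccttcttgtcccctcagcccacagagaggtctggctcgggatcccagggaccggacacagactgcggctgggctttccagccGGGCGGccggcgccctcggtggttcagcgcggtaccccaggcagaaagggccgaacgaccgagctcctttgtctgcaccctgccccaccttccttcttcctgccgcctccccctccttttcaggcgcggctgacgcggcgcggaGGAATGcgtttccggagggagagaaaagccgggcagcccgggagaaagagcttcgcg
Itgb5: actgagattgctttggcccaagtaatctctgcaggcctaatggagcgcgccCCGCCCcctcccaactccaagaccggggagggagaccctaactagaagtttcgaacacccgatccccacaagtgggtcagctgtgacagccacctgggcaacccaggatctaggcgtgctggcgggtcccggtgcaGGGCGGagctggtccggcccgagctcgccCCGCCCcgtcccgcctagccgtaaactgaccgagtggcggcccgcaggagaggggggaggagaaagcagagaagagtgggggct
Itga11: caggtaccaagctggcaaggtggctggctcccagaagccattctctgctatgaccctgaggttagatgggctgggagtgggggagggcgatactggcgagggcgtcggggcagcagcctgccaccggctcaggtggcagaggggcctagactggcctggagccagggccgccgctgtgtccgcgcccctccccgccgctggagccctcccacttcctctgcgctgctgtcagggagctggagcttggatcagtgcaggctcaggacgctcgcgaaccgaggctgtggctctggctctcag
The Itgb1 window held 1 GC box, beginning at base -151 from the start, and 1 GGAATG at base -7. The Itgb5 window held 3 GC boxes, at -199, -63 and -34, and the Itga11 window held no match to any of the 5 motifs searched. GC made up 67.3%, 65.7% and 68% of these windows, in the order shown, against a median of 52.7% over all 32851 windows. Over the 10 windows of the 9 genes, GGGCGG was in 6, GGAATG in 1, CCAAT in 2, and TATAAA and the AP-1 letters TGACTCA in 0. Of all windows, 35.7% held GGGCGG, 14.7% GGAATG, 37.4% CCAAT, 13.6% TATAAA and 5.2% TGACTCA. The matches describe letters and do not mark bound sites.

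Total gene counts lay between 61065582 and 61506413 per library. The biological coefficient of variation, edgeR's estimate of the spread between replicates, was 0.379 among KO libraries and 0.136 among WT libraries. The columns named KO may be the 3 libraries with line numbers in their titles or an earlier group without them; if they are the later group, that group and the genotype cannot be told apart. WT libraries carry no line numbers, so line and genotype cannot be told apart either, and the p-values rest on the variation among these 6 libraries, which may be technical. Sirt7 had 512, 694 and 787 counts in KO libraries, against 833, 1107 and 598 in WT libraries, and did not pass the test (adjusted p = 0.515, edgeR). Of its coding transcripts, Sirt7-201 held 2, 0 and 0 counts in KO libraries, against 53, 58 and 159 in WT libraries, and Sirt7-207 held 60, 129 and 0 in KO libraries, against 118, 11 and 68 in WT libraries. All 10 fibroblast markers listed were detected, and the lowest Col1a1 value was 7383 CPM (gene counts scaled to a library total of 1e6), but Thy1 was at 21.6, 0.195 and 71.5 CPM in KO libraries, against 98.6 to 101 CPM in WT libraries. Each epithelial marker stayed under 1 CPM, and Cdh5, Myod1, Adgre1 and Cd3e had no counts.

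The gene of the shared beta 1 chain was the only 1 of the 10 integrin genes that edgeR called higher in KO libraries. Itgb1 (ENSMUSG00000025809, chr8:128685654-128733200, plus strand) was at 1625, 1867 and 1782 CPM in KO libraries, against 1027, 1133 and 1093 CPM in WT libraries. Every KO library lay above every WT library, and the 3 KO libraries were at 1.5, 1.72 and 1.64 times the WT mean. The means were 1758 ± 123 CPM in KO and 1084 ± 53.5 CPM in WT libraries (SD, n = 3 each), a log2 fold change of 0.73 (SE 0.0904, adjusted p = 0.0125, edgeR's quasi-likelihood test with Benjamini-Hochberg adjustment over 16678 genes). It was 1 of 10 integrin genes called, against 6.73% of all genes tested that were called and 3.54% that were called higher, so the count says nothing particular of integrins as a group. All 10 passed the filter on low counts in every library, the lowest value being 0.246 CPM. The call did not hold without WT 1, WT 2 or WT 3 (adjusted p = 0.102, 0.088 and 0.104), where 51, 45 and 50 of all genes were called. The other genes of chromosome 8 had a median log2 fold change of 0.199. With each chromosome's median taken out, in a limma fit of log2 CPM and not in edgeR, Itgb1 had 0.49 (adjusted p = 0.0339). In such bulk libraries, more cells with a gene on and more RNA per cell cannot be told apart.

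**Figure D1:**
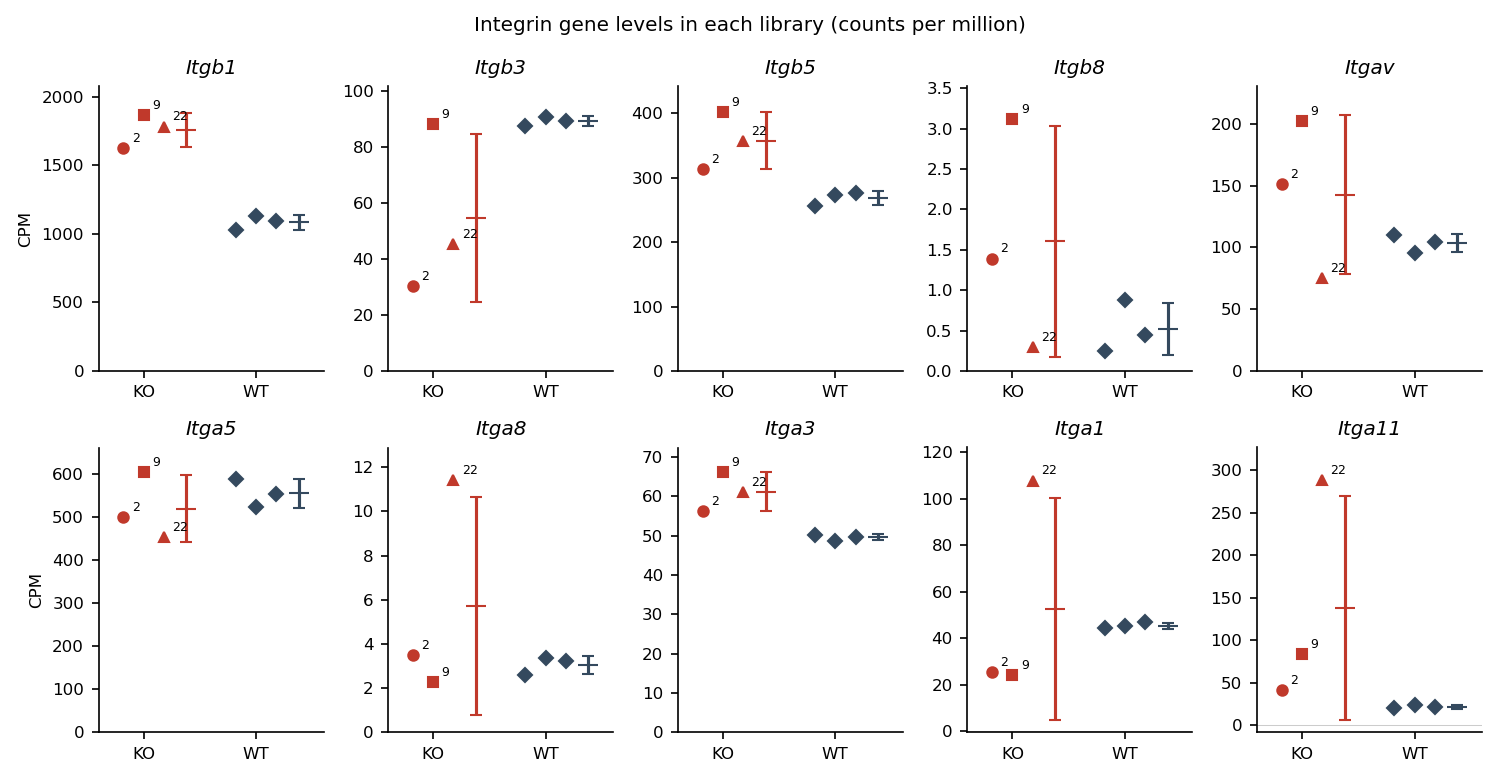
CPM of the 10 integrin genes in each KO library (red, labelled 2, 9 and 22) and WT library (blue), with the mean and SD beside each group; each panel has its own linear axis. KO libraries lie above all WT libraries for Itgb1, Itgb5, Itga3 and Itga11, while for the other 6 genes the groups overlap.

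Both collagen-binding alpha chains among the 10 genes were highest in KO 22, and they differed in the other KO libraries. Itga11 (ENSMUSG00000032243, chr9:62677826-62783982, plus strand) was at 41.3, 83.5 and 288.5 CPM in KO libraries, against 19.9, 24.3 and 21.5 CPM in WT libraries. The groups did not overlap, but KO libraries spread from 1.88 to 13.2 times the WT mean. The log2 fold change was 2.70 (SE 0.70, adjusted p = 0.0701), the largest of the 10, and did not pass the test. Itga1 (ENSMUSG00000042284, chr13:114953096-115101964, minus strand) was at 25.5, 24.1 and 107.8 CPM in KO libraries, against 44.2, 45.1 and 46.8 CPM in WT libraries. KO 2 and KO 9 were near 0.56 and 0.53 times the WT mean and KO 22 at 2.38 times, so that KO libraries lay on both sides of WT (log2 fold change 0.26, SE 0.589, adjusted p = 0.825). Without KO 22 the log2 fold change of Itga1 was -0.86 (adjusted p = 0.00641, edgeR). That fit left out the KO library that stood apart for Itga1, so its p-value is a description. It called 2482 of all genes, against 1123 with all libraries. With all libraries kept, the sign of Itga1 also turned with limma-voom (-0.14) and with chromosome medians taken out (-0.24). Per kilobase of the main transcript, Itga11 made up 78.1%, 88.4% and 85.5% of the summed level of the pair in KO libraries, against 49.9%, 54.4% and 50.3% in WT libraries. KO 22, with the highest Itga11 share of the 6 alpha genes at 29.5%, also differed from the other KO libraries in Pdgfra, at 81.3 CPM, against 9.46 and 11.4 CPM in KO 2 and KO 9 and 68.6 to 76.0 CPM in WT libraries.

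The laminin receptor chain Itga3 (ENSMUSG00000001507, chr11:95044474-95076801, minus strand) was at 56.3, 66.2 and 61.1 CPM in KO libraries, against 50.3, 48.7 and 49.8 CPM in WT libraries. KO libraries were all higher, by a log2 fold change of 0.33 (SE 0.0983), with an unadjusted p of 0.0124 and an adjusted p of 0.0916 in edgeR. The fibronectin receptor chain Itga5 (ENSMUSG00000000555, chr15:103344286-103366763, minus strand) was at 501.1, 604.9 and 454.2 CPM in KO libraries, against 589.4, 522.7 and 553.8 CPM in WT libraries. It overlapped between groups, with a log2 fold change of -0.06 (SE 0.123, adjusted p = 0.784), while the other genes of chromosome 15 had a median of -0.235. Itga8 (ENSMUSG00000026768, chr2:12106632-12301922, minus strand), whose chain binds the RGD ligand nephronectin, was low, at 3.50, 2.26 and 11.4 CPM in KO libraries, against 2.59, 3.37 and 3.22 CPM in WT libraries. KO 22 alone stood above WT, at 3.72 times its mean, and the log2 fold change was 0.95 (SE 0.595, adjusted p = 0.363) with all libraries and -0.07 without KO 22.

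Of the alpha v family, Itgb5 was higher in every KO library than in any WT library. Itgb5 (ENSMUSG00000022817, chr16:33829665-33949338, plus strand) was at 313.4, 402.6 and 357.0 CPM in KO libraries, against 256.7, 272.8 and 275.9 CPM in WT libraries. The KO libraries lay above all WT libraries, at 357.7 ± 44.6 against 268.5 ± 10.3 CPM (SD, n = 3 each), but the log2 fold change of 0.45 (SE 0.113) had an adjusted p of 0.0672 in edgeR. Chromosome 16 had a median log2 fold change of 0.195 over its other genes. Itgav (ENSMUSG00000027087, chr2:83724397-83806916, plus strand), the alpha chain of this family, was at 151.1, 202.6 and 75.1 CPM in KO libraries, against 109.8, 95.5 and 104.6 CPM in WT libraries. KO 2 and KO 9 lay above WT and KO 22 below it, giving a log2 fold change of 0.49 (SE 0.323, adjusted p = 0.38) with all libraries, and of 0.79 (adjusted p = 0.0295) without KO 22. Itgb3 (ENSMUSG00000020689, chr11:104608000-104670476, plus strand) was at 30.4, 88.2 and 45.4 CPM in KO libraries, against 87.4, 90.9 and 89.4 CPM in WT libraries. KO 9 lay within the WT range and KO 2 and KO 22 at 0.341 and 0.509 times the WT mean. The log2 fold change of Itgb3 was -0.67 (SE 0.363, adjusted p = 0.294), and -1.20 (adjusted p = 0.0325) without KO 9. The fits of Itgav without KO 22 and of Itgb3 without KO 9 each left out the KO library that stood apart. Their p-values are descriptions. Itgb8 (ENSMUSG00000025321, chr12:119158022-119238802, minus strand) had 85, 192 and 18 counts in KO libraries, against 15, 54 and 27 in WT libraries. At these depths KO 2 and KO 9 were above every WT library and KO 22 was within the WT range, with a log2 fold change of 1.65 (SE 0.844, adjusted p = 0.272).

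Over the 10 genes, 8 had a positive and 2 a negative log2 fold change, with a median of 0.471 against 0.0152 over all genes tested. The sign of Itga1 and of Itga5 turned in the limma fit with chromosome medians taken out (-0.24 and 0.23). The 4 genes Itga3, Itga11, Itgb1 and Itgb5 lay wholly higher in KO libraries and 0 lay wholly lower, against 15.7% of all genes wholly higher and 35.9% wholly apart in either direction. In edgeR those 4 genes had an unadjusted p under 0.05, and 9 of the 10 did not pass the adjusted test. Across the 6 libraries, log2 CPM of Itgb1 ran with that of Itgb5 (Pearson's r = 0.956) and of Itga3 (0.95), and Itga3 with Itgb5 (0.98). Itga1 ran against Itgav (-0.892), with KO 22 highest in Itga1 and lowest in Itgav. These r values are descriptions over 6 libraries that share the contrast of genotypes. Of all genes tested, the 3 most like Itgb1 were Mfsd4b4, Sec63 and Hmox2, with r of 0.9984, 0.9983 and 0.9981. They were picked as the highest r among those genes.

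**Figure D2:**
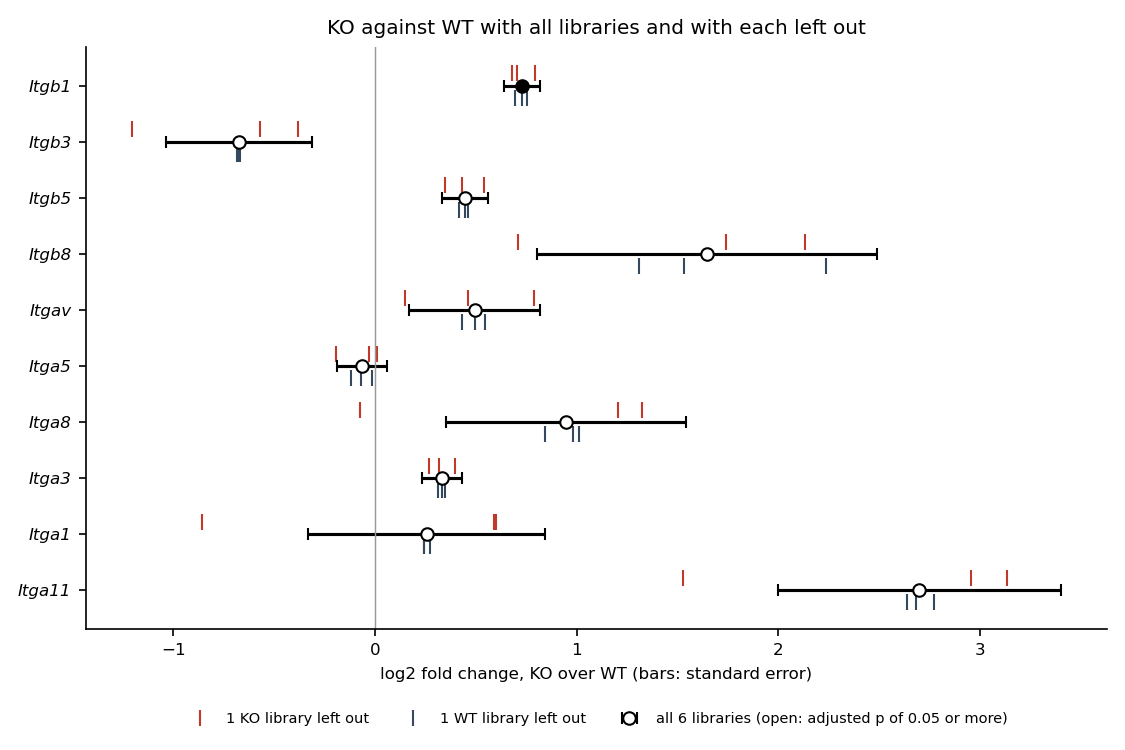
Log2 fold change of KO over WT for each integrin gene with its standard error (black circle, filled where the adjusted p was under 0.05), and with 1 KO (red ticks) or 1 WT library (blue ticks) left out. Itgb1 stays between 0.68 and 0.79, whereas Itga1 and Itga8 cross 0 without KO 22, and Itga5 lies near 0.

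Divided by the length of the main transcript, levels ran from Itgb1 at the top to Itgb8 at the bottom in both groups. In KO libraries the mean levels were 461 CPM per kb for Itgb1, 119 for Itga5, 117 for Itgb5, 27.7 for Itga11, 20.3 for Itgav, 12.6 for Itga3, 9.45 for Itgb3, 4.79 for Itga1, 0.983 for Itga8 and 0.191 for Itgb8. From Itga11 down to Itga1 each neighbour overlapped the next in range, as did Itga5 and Itgb5. In WT libraries they were 284 CPM per kb for Itgb1, 127 for Itga5, 87.9 for Itgb5, 15.4 for Itgb3, 14.6 for Itgav, 10.2 for Itga3, 4.41 for Itga11, 4.14 for Itga1, 0.526 for Itga8 and 0.062 for Itgb8. There the ranges of neighbours overlapped for Itgb3 with Itgav and for Itga11 with Itga1 only. Itga11 stood at rank 4 in KO and rank 7 in WT libraries, and Itgb3 at rank 7 in KO and rank 4 in WT libraries.

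Among beta chains, Itgb1 made up 79.8%, 76.9% and 78.9% of the level per length in KO libraries, against 73.1%, 73.9% and 73.0% in WT libraries. The Itgb3 share was 0.984%, 2.40% and 1.33% in KO libraries, against 4.10%, 3.91% and 3.94% in WT libraries. In KO 9 the level of Itgb3 itself was 15.3 CPM per kb, within the WT range of 15.1 to 15.7, and its share was lower beside higher Itgb1 and Itgb5. Itgb1 stood at 2.68, 2.45 and 2.38 times the sum of the 6 alpha genes in KO libraries, against 1.59, 1.95 and 1.78 times in WT libraries. The Itga5 share of the alpha sum was 72.1%, 69.1% and 52.7% in KO libraries, against 79.6%, 78.3% and 78.7% in WT libraries. These shares are RNA levels, given as descriptions with no test. The alpha sum holds only the 6 genes listed and leaves out others that were detected, such as Itga6.

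**Figure D3:**
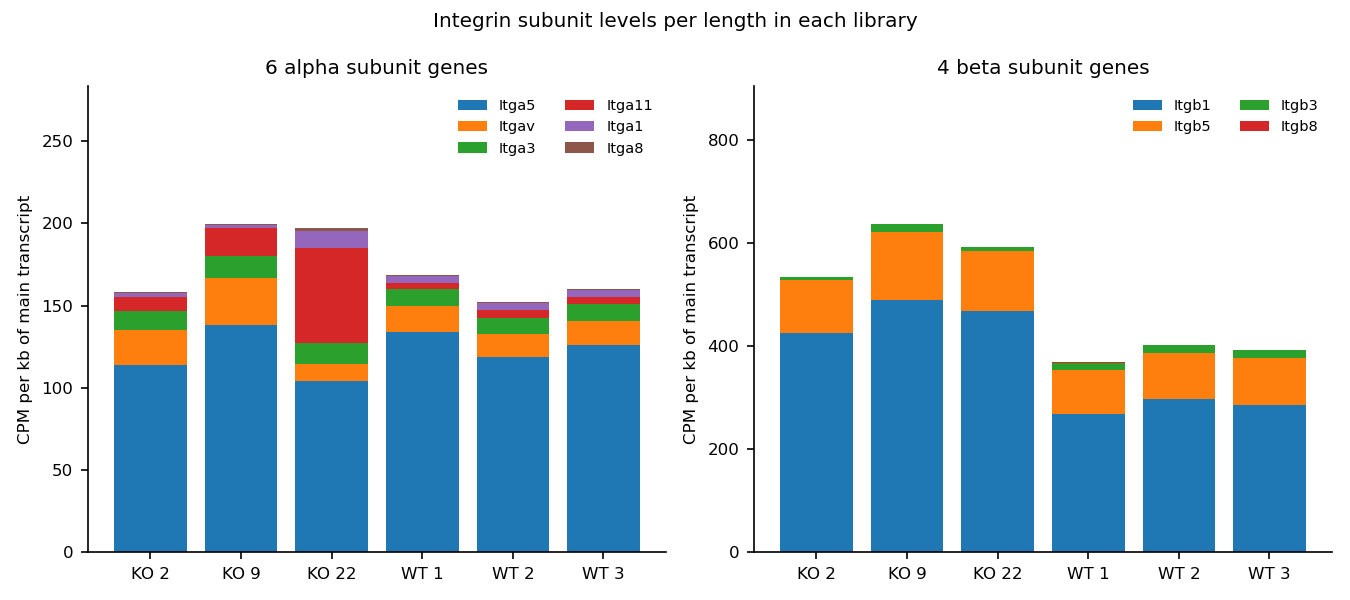
Stacked levels per length (CPM per kb of the main transcript) of the 6 alpha genes and the 4 beta genes in each library, KO libraries left of WT libraries. Itgb1 fills most of each beta bar and is larger in the 3 KO libraries, and Itga11 takes 29.5% of the alpha bar of KO 22.

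A single transcript, the one numbered 201, carried at least 93.9% of the counts of Itga1, Itga5, Itga8, Itga11, Itgav, Itgb1 and Itgb3 in every library. Itga3-202, the shorter Itga3 transcript, held 0.582%, 12.4% and 12.1% of its counts in KO libraries, against 3.75%, 18.5% and 16.9% in WT libraries. Itgb5-207, a coding model with 11 exons where Itgb5-201 has 15, held 28.3%, 40.9% and 41.8% in KO libraries, against 38.2%, 32.2% and 6.03% in WT libraries. Both shares varied within each group by more than between the groups.

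Counts assigned to a parental genome came less from genome 1 in KO cells for Itgb1 and Itgb5. Itgb1 had 44.3%, 42.7% and 43.6% genome 1 counts in KO libraries, against 53.5%, 53.7% and 54.1% in WT libraries, with 95% Wilson intervals at most 1.16 points wide. The groups did not overlap, and the log2 change of the allelic ratio was -0.59 (SE 0.0996, adjusted p = 0.0084, edgeR with a term per library). Itgb5 had 63.7%, 64.5% and 62.8% in KO libraries, against 72.4%, 72.4% and 72.6% in WT libraries, with intervals at most 1.83 points wide, and a log2 change of -0.59 (SE 0.107, adjusted p = 0.0113). These were 2 of 10 genes called, against 23.0% of the 12984 genes tested, and 11.7% called with a lower genome 1 share, so the count lies near that of all genes. Without WT 3 the adjusted p of Itgb1 was 0.0516, and that of Itgb5 was 0.0609, 0.061 and 0.0624 without WT 1, WT 2 and WT 3. Intervals cover counting error only.

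For Itgb1 the levels of both parental copies were higher in KO libraries, a description given no test of its own. Genome 1 counts of Itgb1 were at 345.6 ± 18.2 CPM in KO and 263 ± 13.9 CPM in WT libraries, a ratio of 1.31, and genome 2 counts at 449.1 ± 34.9 and 226.3 ± 10.4 CPM, a ratio of 1.98 (SD, n = 3 each). For Itgb5 the KO over WT ratios were 1.15 for genome 1 and 1.73 for genome 2. The other genes of both chromosomes lay lower in KO libraries too. On chromosome 8 they were 46.5%, 45.9% and 45.9% genome 1 in KO libraries, against 56.5%, 55.9% and 56.4% in WT libraries. On chromosome 16 they were 47.4%, 49.6% and 46.9% in KO libraries, against 60.1%, 58.6% and 60.4% in WT libraries. An alternative chosen after seeing the data took out each library's chromosome median of the allelic ratio and fitted log2 ratios with limma, not edgeR. There Itgb1 had a log2 change of 0.049 (adjusted p = 0.866) and Itgb5 of 0.060 (adjusted p = 0.848), and 0.870% of all genes were called. Of the 10, Itga11 was then called, at -1.25 (SE 0.133, adjusted p = 0.0364, limma). With no chromosome median taken out Itga11 was not called, at -0.55 in limma (SE 0.271, adjusted p = 0.214) and -0.54 in edgeR (SE 0.25, adjusted p = 0.183). Its genome 1 shares were 21.1%, 32.9% and 29.5% in KO libraries, against 35.0%, 35.5% and 36.7% in WT libraries, with intervals of up to 7.49 points. The other genes of chromosome 9 were 42.5%, 56.8% and 45.9% genome 1 in KO libraries, against 36.6%, 36.8% and 36.3% in WT libraries.

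Itgb3 split the KO libraries in another way. Its genome 1 share was 16.1%, 16.0% and 52.1% in KO libraries, against 54.9%, 55.0% and 55.4% in WT libraries, with intervals of up to 6.82 points (log2 change -1.89, SE 0.706, adjusted p = 0.114). KO 2 and KO 9 were low and KO 22 was near WT, and without KO 22 the log2 change was -2.68 (adjusted p = 0.00605, edgeR). That fit left out the KO library that stood apart, so its p-value is a description. In genes within 5 Mb of Itgb3, the median share was 57.0%, 33.1% and 64.9% in KO libraries, against 60.4%, 59.8% and 60.3% in WT libraries, so Itgb3 lay below its neighbours in all 6 libraries, with the widest gap in KO 2. Itga3, also on chromosome 11, had 67.0%, 40.6% and 74.8% genome 1 in KO libraries, against 76.6%, 76.3% and 75.0% in WT libraries. Itga5 followed its chromosome in each KO library, at 41.7%, 55.2% and 32.4% beside 41.2%, 55.5% and 35.0% for the other genes of chromosome 15, and was at 53.2% to 53.9% in WT libraries. Without KO 9 the allelic changes of Itga5 (-0.98, adjusted p = 0.0158) and Itga1 (0.77, adjusted p = 0.00838) passed the test, which they did not with all libraries. KO 9 stood apart from the other KO libraries in both genes, so these p-values are descriptions. Itgb8 had 6 to 89 allele counts per library, too few to read a share, since its intervals were 19.6 to 49.4 points wide.

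Itgav was read from genome 1 almost alone in every library. Genome 2 gave 3 counts in each KO library, beside 4026, 5568 and 2022 of genome 1, and 3, 3 and 0 counts in WT libraries, beside 2863, 4269 and 2910 of genome 1. The 0 of 2910 allows a genome 2 share of up to 0.103%. The 22 other genes within 5 Mb with enough allele counts had median genome 1 shares of 98%, 99.1% and 99.6% in KO libraries, against 99.5%, 99.2% and 98.2% in WT libraries. Over all other genes of chromosome 2, those of this window included, the share was 62.2%, 51.7% and 58.7% in KO libraries, against 59.9%, 59.8% and 59.9% in WT libraries. The stretch around Itgav was read from genome 1 in both genotypes, and the window was chosen after seeing the data. Itga8, on the same chromosome, had counts from both genomes in every library.

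**Figure D4:**
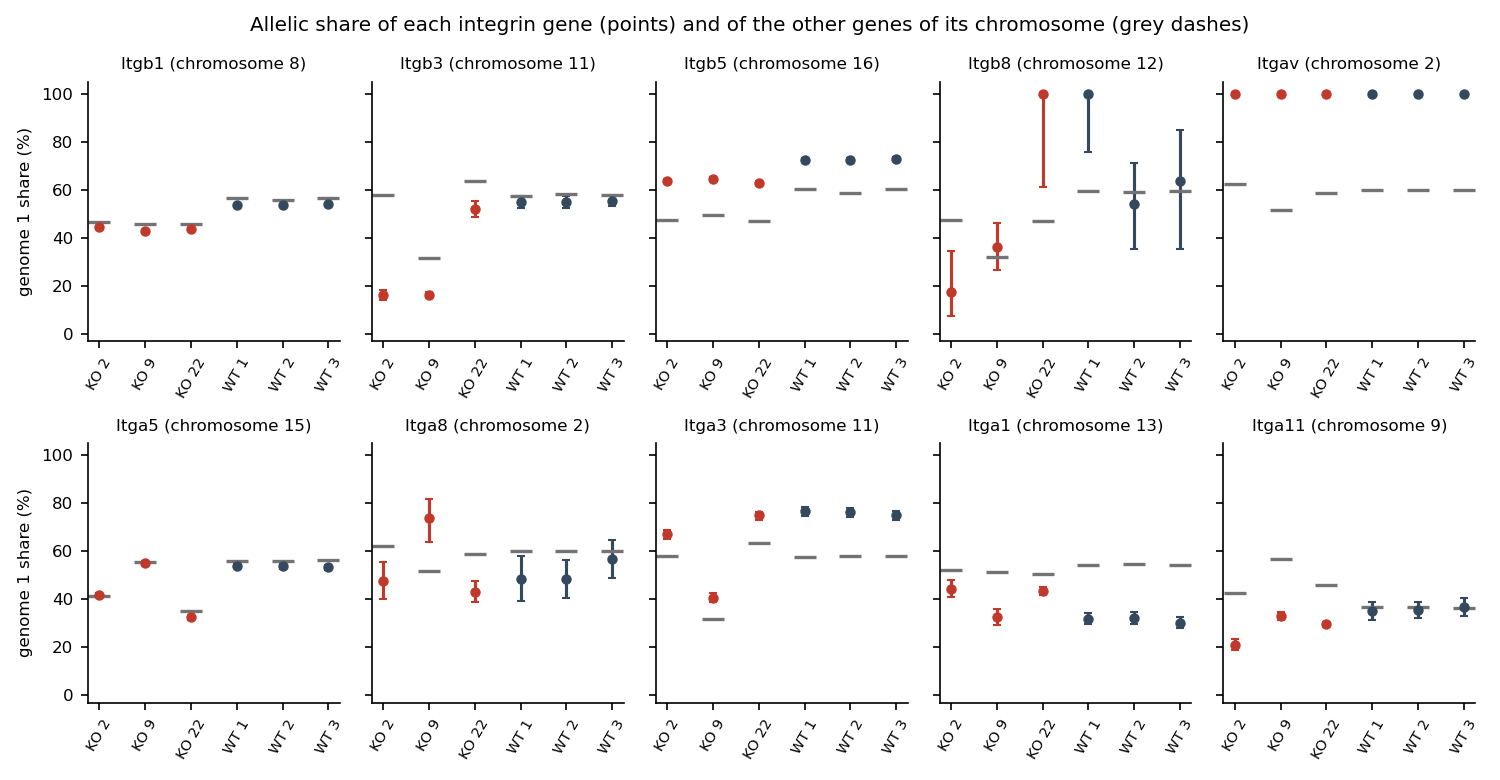
Genome 1 share in percent of each integrin gene (points with 95% Wilson intervals; KO libraries red, WT libraries blue) and of the other genes on its chromosome (grey dashes). Itgb1, Itgb5 and Itga5 move with the dashes, KO 2 and KO 9 sit at about 16% for Itgb3, and Itgav sits at the top in all 6 libraries.

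The genes around these receptors were set beside them from lists of 17 other integrins, 30 ligands, 35 adaptors and activators, and 24 inhibitors, traffic genes and membrane partners. Of the other integrin genes, 8 were tested and 0 passed in edgeR, where 1 had an unadjusted p under 0.05, while DESeq2, limma-voom and limma-voom with group weights each called 1, Itgb7 in each. The other 9 were too low to test, 3 of them at 0 in all libraries. Itga6, a laminin receptor chain, was at 49.7, 22.6 and 14.1 CPM in KO libraries, against 21.3, 21.4 and 22.7 CPM in WT libraries (adjusted p = 0.568, edgeR). Itgb7, known from lymphocyte homing, was at 4.44, 2.88 and 0.866 CPM in KO libraries, against 12.8, 12.1 and 11.9 CPM in WT libraries, wholly lower but with an adjusted p of 0.0615. Itga2b, Itga7, Itga10 and Itgb4 had means between 1.131 and 3.679 CPM in either group and adjusted p from 0.326 to 0.694 in edgeR. Itga10 was wholly higher in KO libraries, at 1.51, 1.46 and 1.54 CPM, against 1.38, 0.765 and 1.25 CPM in WT libraries (adjusted p = 0.371, edgeR).

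Of the ligand genes, edgeR called 6 higher and 1 lower of 28 tested, which is 25%, against 6.73% of all genes tested. Their median log2 fold change was 0.489, against 0.0152 over all genes tested. Col1a2 was at 4295, 4989 and 6089 CPM in KO libraries, against 2254, 2165 and 2186 CPM in WT libraries (log2 fold change 1.25, SE 0.146, adjusted p = 0.0104). Col1a1 rose by 0.93 (adjusted p = 0.0175) and Mfge8, an RGD protein that binds alpha v integrins, by 0.72 (adjusted p = 0.0215). Tgfbi, a secreted matrix protein that integrins bind, was at 0.0327, 0.163 and 0 CPM in KO libraries, against 19.6, 14.4 and 18 CPM in WT libraries (adjusted p = 0.006). Type I collagen is also a fibroblast marker. The fibroblast markers summed to 23470 to 30430 CPM in KO libraries, against 14420 to 14600 CPM in WT libraries. Of the 10, edgeR called 3 higher and 0 lower: the collagens Col1a1, Col1a2 and Col3a1, which are also in the ligand list. Vim was wholly higher too, at 3984, 5241 and 2979 CPM in KO libraries, against 2543 to 2677 CPM in WT libraries (adjusted p = 0.0853, edgeR). Thy1 was wholly lower (adjusted p = 0.479, edgeR). Of the smooth muscle markers, all 5 were detected, with sums from 9888 to 13460 CPM in KO and 7526 to 8379 CPM in WT libraries. Among them edgeR called 2 higher and 1 lower, and Acta2 and Des were wholly higher without passing (adjusted p = 0.104 and 0.262). The part of these markers in the integrin values was not tested.

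Of the adaptors and activators, edgeR called 6 higher and 1 lower of 34 tested (20.6%), with a median log2 fold change of 0.187. Lims2, a PINCH adaptor of integrin-linked kinase, rose by 0.90 (adjusted p = 0.0134, edgeR). The focal adhesion proteins Zyx and Actn1 rose by 0.41 (adjusted p = 0.0361) and 0.42 (adjusted p = 0.0376) in the same test. Kank1, which binds talin, was at 0.115, 0.114 and 0.245 CPM in KO libraries, against 0.933, 1.38 and 1.3 CPM in WT libraries (log2 fold change -2.88, adjusted p = 0.0173). In the last list edgeR called 2 higher and 2 lower of 23 tested (17.4%), with a median of 0.0809. Sharpin, an inhibitor of integrin activation, fell by 0.50 on the log2 scale (adjusted p = 0.0306), and Plaur, the urokinase receptor, fell by 1.46 (adjusted p = 0.019). Emp2, a membrane partner of integrins, rose by 0.90 (adjusted p = 0.0362) and Rab11fip1, of endosomal recycling, by 0.60 (adjusted p = 0.0472). The share of all genes called was 6.73%, and the lists were not tested against it.

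**Figure D5:**
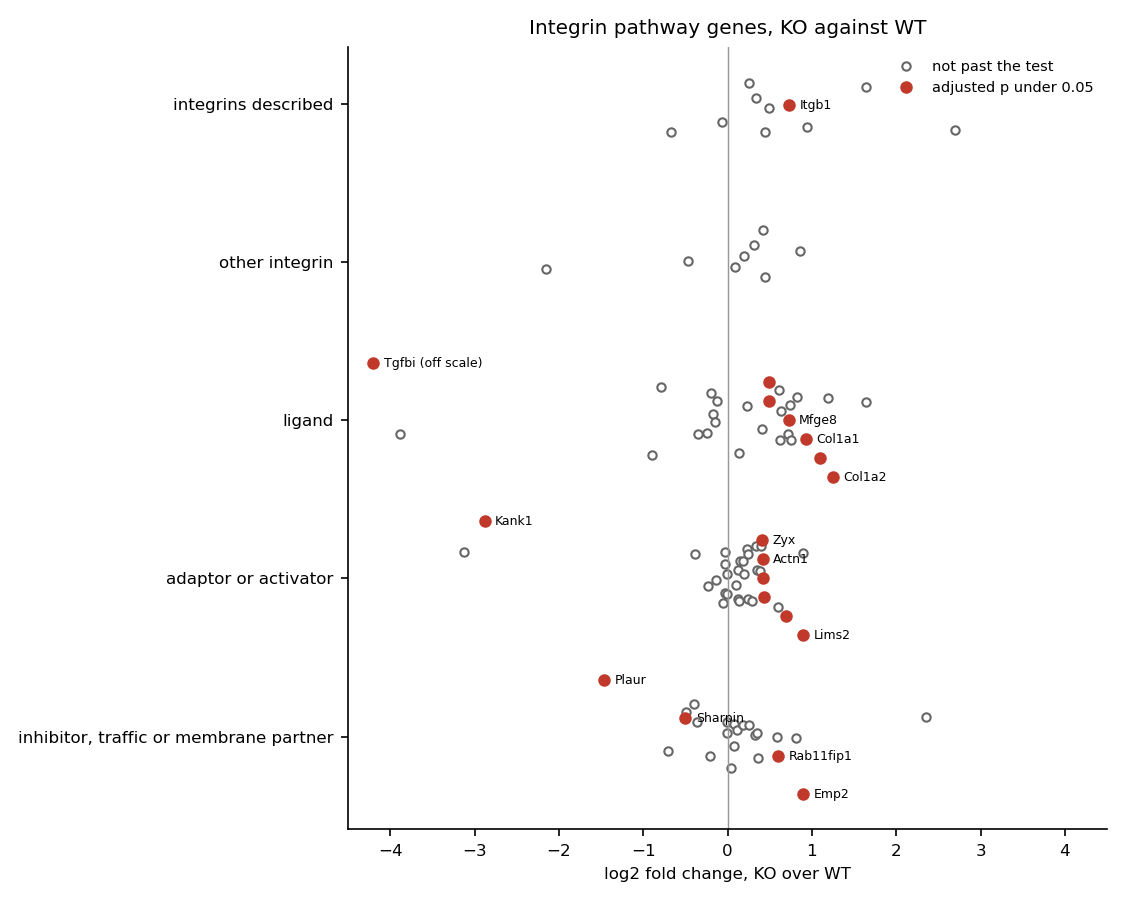
Log2 fold change, KO over WT, of each tested gene in the integrin lists; filled points had an adjusted p under 0.05 and up to 4 of them per list are named (vertical position within a list carries no value). Most filled points lie right of 0, with Plaur, Sharpin, Kank1 and Tgfbi (-7.98, drawn at the left edge) left of it.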

How the data were processed

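Per the labels' protocols, RNA was extracted with TRIZOL and selected by polyA. Tools named in the submitters' processing notes, without roles, are StringTie 1.3.3, HISAT2 2.1.0, Trimmomatic 0.36, DESeq2 1.32.0, FastQC 0.11.3 and SAMtools 0.1.19; no source read here gives aligner settings, strand or annotation, or says which strain genome 1 is. The authors deposited estimated counts, all whole numbers, per gene and transcript for all reads and per gene for reads of each genome. A preference of the mapping for one genome was not tested, so allelic shares were tested between groups only. Shares described within a library, or beside other genes, may hold such a preference. The 6 columns of split reads with no genome were left out.

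Columns were matched to groups by name; the KO columns could not be tied to single samples. GENCODE M21 on GRCm38 placed 55227 genes, and 0.0319% of counts fell outside them. KO was compared with WT in edgeR 4.0.16 (R 4.3.3) by the quasi-likelihood test, with TMM scaling and the default filter on low counts, calling adjusted p under 0.05. For allelic ratios the edgeR model had a term per library and took genes averaging 20 or more allele counts. Standard errors are of log2 fold changes, and Wilson intervals are at 95%. Alternatives, with DESeq2 1.42.0 and limma 3.58.1 among them, changed scaling, tool, filter, chromosome medians or the libraries kept. Fits with chromosome medians taken out used limma on log2 values. The other tests were checked on simulated data with the same spread in both groups, unlike these libraries, and the fits with chromosome medians taken out were not checked. All 10 integrins were named, then up to 4 called genes per list by p and other integrins with a mean of at least 1 CPM. Members and lists were chosen with earlier results of these data known.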

Additional observations from a re-analysis of the deposited data

How the results depend on the processing

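The call of Itgb1 held under each scaling, tool and filter tried and without any single KO library, and was lost without any single WT library. Integrin genes called numbered 1 with edgeR, 3 with DESeq2 (Itga11, Itgb1, Itgb5), 2 with limma-voom and group weights (Itga11, Itgb1), and 0 to 4 with 1 library left out; the 4 came without KO 2 (Itga3, Itga11, Itgb1, Itgb5) or without KO 22 (Itga1, Itga11, Itgav, Itgb1). Of all genes, 1123 were called, 2590 with DESeq2, 396 with no filter on low counts and 45 to 2482 with 1 library left out. Of the 28 ligand genes tested, DESeq2 called 15, in the fit where it called 2590 of all genes. Allelic calls among the integrins numbered 2, then 1 with chromosome medians taken out and 0 to 4 with 1 library left out. Over all genes they numbered 2992, then 113 and 1710 to 3822. The log2 fold change of Itga1 turned to -0.14 with limma-voom, -0.14 with group weights and -0.24 with chromosome medians taken out, and ran from -0.86 to 0.60 with 1 library left out. Itga5 turned to 0.23 with chromosome medians taken out and ran from -0.19 to 0.0086 with 1 library left out, and Itga8 ran from -0.073 to 1.323. Without KO 22, these 3 changed sign. The allelic change turned for Itga5 (0.12), Itgb1 (0.049) and Itgb5 (0.060) with chromosome medians taken out. With 1 library left out it ran from -0.35 (without KO 9) to 0.56 for Itga8 and from -0.95 to 0.073 (without WT 3) for Itgav. The cause of these changes was not tested. Of the single-gene values under other settings, 111 of the total counts and 85 of the allelic ratios kept their direction and side of the threshold. No paired analysis was possible because the KO and WT columns share only 1 replicate number. Depth limits Itgb8, with 15 to 192 counts, and the allelic share of Itga8, whose intervals were up to 18.8 points wide.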
